A study of Mus musculus with 4 samples.

Results

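The genes described here make, import, move, export and sense cholesterol. The list holds 31 genes in 5 roles, picked by name with earlier results of these data known. The roles are the early pathway to squalene, the late sterol steps, uptake and intracellular transport, efflux, and regulators. A gene was measured through the probe sets that carry its symbol alone, and through the brightest of them where it had several. This gave values for 30 of the 31 genes, among 19938 genes in all, and Acat2 was not analysed here. Expression was measured in testes of Lhcgr KO mice, 2 samples, and of control WT mice, 2 samples. Lhcgr encodes the receptor for luteinizing hormone, and values for Lhcgr itself were not analysed here. All animals, controls included, were males given busulfan at 44 mg/kg and killed 4 weeks later, so germ cells were depleted in both groups. The labels give neither strain nor age. Nor do they say that the replicates are different animals, so the p-values reflect only the scatter of these samples, which may be technical.

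Cells assemble cholesterol from acetyl-CoA through mevalonate and squalene, then close the rings to lanosterol and trim it. When membrane sterol is low, the escort protein SCAP carries the transcription factor SREBP2 out of the endoplasmic reticulum to be cleaved, and INSIG proteins hold it back when sterol is high. In Leydig cells, the interstitial cells that answer luteinizing hormone, cholesterol from synthesis, lipoproteins and stored esters is the raw material of testosterone.

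Of the 30 measured cholesterol genes, 3 fell and 1 rose in the Lhcgr KO testes. Stard5, a lipid carrier, fell to 0.461 times the control WT level, and the late sterol enzymes Nsdhl and Tm7sf2 fell to 0.574 and 0.624 times. Srebf2, which encodes SREBP2, rose 1.65-fold. The other 26 genes did not pass the test, and 7 of 7 early-pathway genes were among them. The test was limma on log2 values with Benjamini-Hochberg adjustment over all genes, at an adjusted p under 0.05. The 4 calls are 13.3% of the members, where 3.1% of all genes were called, 0.963% higher and 2.14% lower in the KO. Because the members were chosen with earlier results of these data known, these shares are a description and not a test.

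The promoters of the 4 called genes are shown with that of Hmgcs1, an early-pathway gene that did not pass the test, so that the control letters near their starts can be compared. Each runs 5′ to 3′ along the gene from 250 bases before its start to 50 bases after it, taken from RefSeq on GRCm38.p6. Stard5 lies at chr7:83631767-83632066 on the plus strand, Nsdhl at chrX:72918271-72918570 on the plus strand and Tm7sf2 at chr19:6067801-6068100 on the minus strand. Srebf2 lies at chr15:82147019-82147318 and Hmgcs1 at chr13:119690101-119690400, both on the plus strand. Capitals mark matches on either strand to any of 6 motifs. They are the sterol regulatory element TCACNCCAC that SREBPs bind, a shorter related motif ATCACCC, and the CCAAT box of NF-Y. The others are the GC box GGGCGG of Sp1, the NR5A1 element AAGGTCA and the cyclic AMP response element TGACGTCA. The shorter motif has an A before TCAC and a C at the N. A match to the full element need not hold it, and that of Hmgcs1 does not. The shorter motif was added after the sequences had been seen, and neighbouring GC and CCAAT boxes can abut.
Stard5: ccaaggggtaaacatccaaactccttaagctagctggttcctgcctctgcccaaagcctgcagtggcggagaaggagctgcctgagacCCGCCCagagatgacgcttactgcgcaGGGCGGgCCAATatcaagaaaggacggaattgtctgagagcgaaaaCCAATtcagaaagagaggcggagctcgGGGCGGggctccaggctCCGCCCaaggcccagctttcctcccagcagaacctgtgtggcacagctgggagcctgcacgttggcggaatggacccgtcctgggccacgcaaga
Nsdhl: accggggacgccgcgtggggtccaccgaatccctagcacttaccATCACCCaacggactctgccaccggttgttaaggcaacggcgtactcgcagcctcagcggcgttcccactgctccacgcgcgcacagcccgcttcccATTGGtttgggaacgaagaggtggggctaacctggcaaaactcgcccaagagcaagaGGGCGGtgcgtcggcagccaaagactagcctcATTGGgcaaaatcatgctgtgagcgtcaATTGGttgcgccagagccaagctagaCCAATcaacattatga
Tm7sf2: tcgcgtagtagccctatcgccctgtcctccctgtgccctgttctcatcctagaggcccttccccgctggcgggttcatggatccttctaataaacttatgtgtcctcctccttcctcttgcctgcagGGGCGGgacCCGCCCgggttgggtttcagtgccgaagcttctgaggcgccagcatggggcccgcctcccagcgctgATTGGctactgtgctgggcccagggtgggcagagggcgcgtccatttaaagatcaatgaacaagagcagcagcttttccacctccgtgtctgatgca
Srebf2: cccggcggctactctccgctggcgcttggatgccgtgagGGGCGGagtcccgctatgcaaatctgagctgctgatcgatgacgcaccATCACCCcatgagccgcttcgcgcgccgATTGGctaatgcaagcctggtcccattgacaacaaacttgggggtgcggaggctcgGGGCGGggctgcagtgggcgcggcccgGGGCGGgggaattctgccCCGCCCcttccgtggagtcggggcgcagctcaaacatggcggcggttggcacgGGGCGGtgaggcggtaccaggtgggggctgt
Hmgcs1: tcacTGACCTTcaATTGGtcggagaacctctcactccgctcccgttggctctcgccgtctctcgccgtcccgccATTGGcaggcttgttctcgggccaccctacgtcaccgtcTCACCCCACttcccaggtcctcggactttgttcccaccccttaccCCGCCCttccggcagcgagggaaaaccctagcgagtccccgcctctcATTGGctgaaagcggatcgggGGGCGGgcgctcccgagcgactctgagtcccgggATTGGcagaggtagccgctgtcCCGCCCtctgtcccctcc

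Windows were found for 25 of the 31 genes. The sterol element TCACNCCAC stood in 1 of these 25, Hmgcs1, at 137 bases before the start, and in 1.44% of the 27025 genes with a window. The shorter related motif ATCACCC stood in 2 of 25, Nsdhl and Srebf2, at 206 and 163 bases before their starts, and in 3.07% of all genes with a window. As that motif was added after the sequences had been seen, its shares are not a test. A CCAAT box stood in 20 of the 25 members (80%) and in 41.1% of all genes, and a GC box in 22 of 25 (88%) and in 38.2%. Stard5 and Tm7sf2 showed GC and CCAAT boxes and no match to either sterol motif. The NR5A1 element stood in 3 of 25 members, Hmgcs1, Dhcr7 and Lrp8, and in 5.38% of all genes, and the cyclic AMP response element in 0 of 25 and in 2.03%. A match is a run of letters and not a shown binding site, and no match covers only this window.

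All 4 arrays carried 28856 probe sets, with medians of 208 and 215 intensity units in KO and of 198 and 206 in WT samples, and precision is limited by there being only these 4. Levels are given as log2 of the deposited intensity, and changes as log2 fold change, KO over WT. Standard errors (SE) and confidence intervals of changes are the moderated ones of limma. There the spread of each gene is drawn towards that of all genes, so they are not the scatter of its own replicates alone. The median change of all genes was 0.072 on the log2 scale. It was 0.020 with the weakest 25% of genes left out and -0.041 with the weakest 50% left out. The testis label was checked on Sertoli cell markers, of which 15 of 16 were measured. Their summed intensity lay between 56955 and 59750 in KO and between 54018 and 56871 in WT samples, with 1 member called higher, Amh, and none lower. Of 13 measured Leydig cell markers 6 fell, with a summed intensity of 10115 to 11482 in KO and of 20393 to 34270 in WT samples. The largest changes were those of the Leydig genes Hsd3b6, Sult1e1, Ptgds and Ces1d, at -6.81, -4.90, -4.49 and -4.01. The WT pair alone differed by 2.81 for Sult1e1 and 2.06 for Ptgds. Of the uncalled Leydig markers, Hsd3b1, Scarb1 and Nr5a1 had changes of 0.20, 0.026 and 0.021 with overlapping groups. The other uncalled ones were lower on both KO arrays. Star and Scarb1 are also among the other sterol genes described below. Of 15 measured macrophage markers 7 fell, led by Lyz2, Folr2, Csf1r and Cd68 at -1.55, -1.34, -1.02 and -0.95, and their summed intensity was 5428 to 5651 in KO and 9296 to 11586 in WT samples. Of 14 epididymis markers Epcam alone was called, lower at -2.06, and their sum was 9103 in control WT replicate 2, against 1731 to 1759 in the other 3 samples. Of 9 endothelial markers Sox18 rose (1.02), and none of 8 peritubular and smooth muscle, 14 germ cell or 7 adipocyte markers was called. In whole testis RNA, fewer cells of a type and less RNA per cell cannot be told apart. The part of Leydig cells and macrophages in the changes of the cholesterol genes was not tested.

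**Figure D1:**
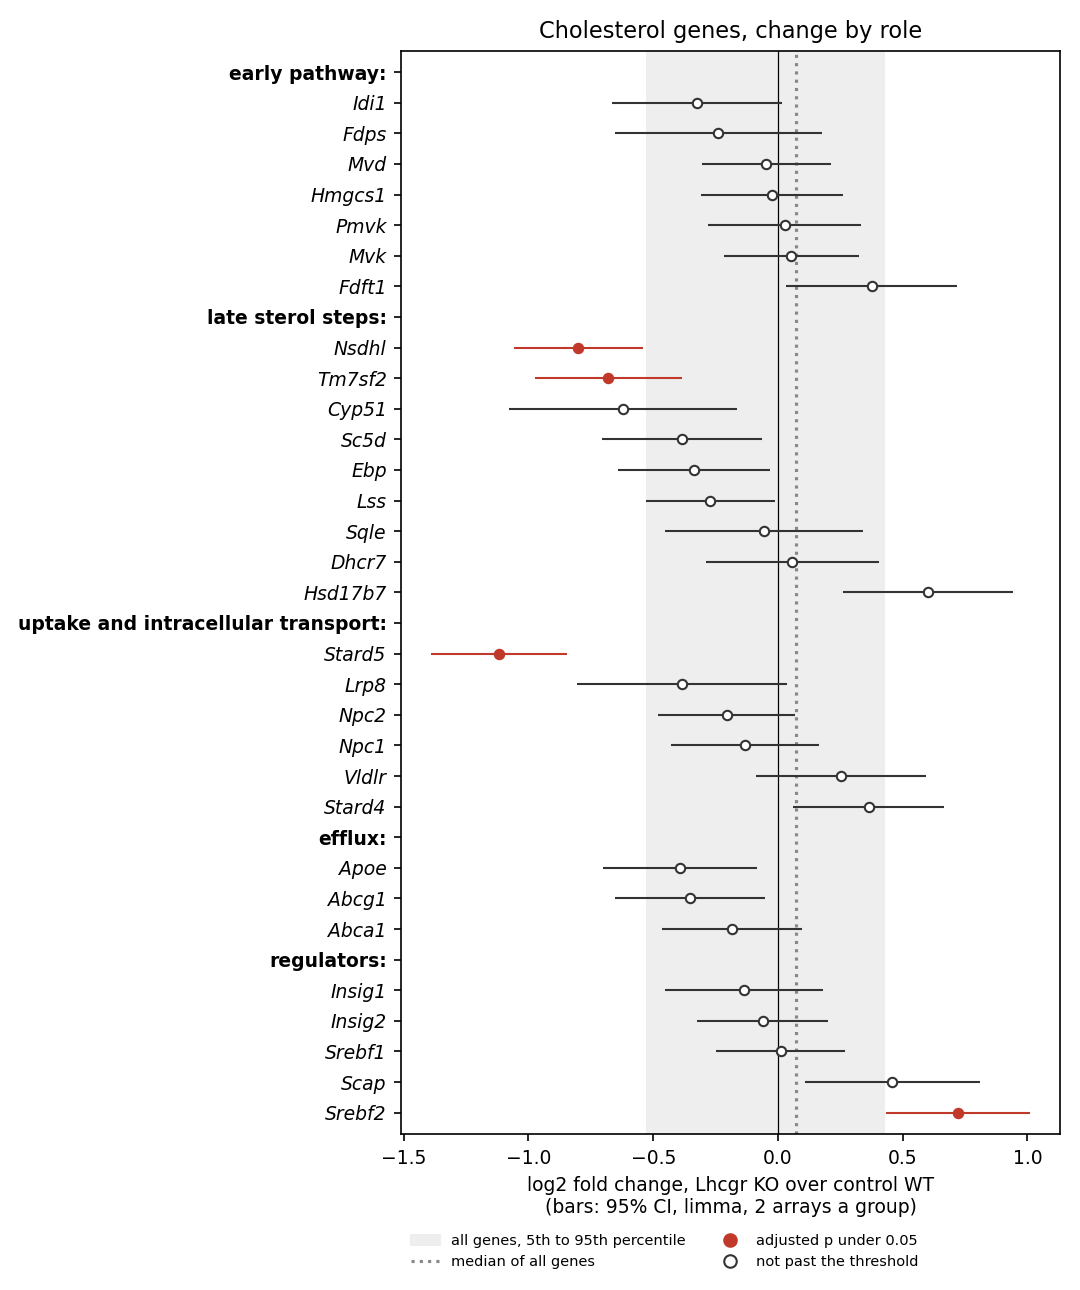
Log2 fold change, Lhcgr KO over control WT, of the 30 measured cholesterol genes by role, with 95% confidence intervals from limma over 2 arrays a group; filled red points passed an adjusted p of 0.05, and the grey band spans the 5th to 95th percentile of all genes (-0.52 to 0.43). The points of the 4 called genes lie outside the band, as do those of Cyp51, Hsd17b7 and Scap, which did not pass, and the 7 early-pathway points lie within it.

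The early pathway showed no call among 7 measured genes, and its median log2 fold change was -0.024. Hmgcs1 makes HMG-CoA, the substrate of the step that yields mevalonate. It measured 10.53 and 10.71 log2 units in KO, against 10.67 and 10.62 in WT testes. The groups overlapped, and the 95% confidence interval of the change ran from -0.31 to 0.26, so a change of the size seen in Nsdhl lies outside it. The kinases Mvk and Pmvk had log2 fold changes of 0.054 and 0.027, and the decarboxylase Mvd had one of -0.046, each with an interval that spans 0 and stays within -0.31 and 0.34. Fdps, which builds farnesyl pyrophosphate, had a change of -0.24 (95% confidence interval -0.65 to 0.18). It was -0.028 without control WT replicate 1 and -0.45 without control WT replicate 2.

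Fdft1, the squalene synthase that commits farnesyl pyrophosphate to sterols, measured 10.49 and 10.56 in KO, against 10.32 and 9.98 in WT testes. Both KO values lay above both WT values, and the change was 0.38 ± 0.14 (SE), with a limma adjusted p of 0.198. Its second probe set gave 0.40. With 1 array left out the change of Fdft1 lay between 0.21 and 0.54, lowest without control WT replicate 2. Idi1, the isomerase that readies the isoprene unit for condensation, measured 8.27 and 7.98 in KO and 8.53 and 8.37 in WT testes, a change of -0.33 ± 0.14 (limma adjusted p = 0.233), and -0.37 on its second probe set. With 1 array left out the change of Idi1 lay between -0.47 and -0.18, nearest 0 without Lhcgr KO replicate 2. Idi1 and Fdft1 therefore had values on opposite sides of 0 within the same stretch of the pathway, and neither passed the test.

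Among the 9 late sterol steps, 2 fell, 0 rose and 7 were not called, with a median log2 fold change of -0.34 against 0.072 for all genes. With the weakest 50% of genes left out, the medians were -0.27 over the 7 late-step genes that remained and -0.041 over all genes. Both KO arrays lay below both WT arrays in 6 of the 9 genes and above them in 1. Over all genes, weak ones included, these shares were 22.4% below and 36.8% above. The Leydig and macrophage marker sums given above were lower in the same KO samples.

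Nsdhl (probe set 10600082) encodes the dehydrogenase that removes the carboxylated methyl group from the sterol ring after lanosterol. It measured 8.95 and 8.93 log2 units in KO, against 9.72 and 9.76 in WT testes. The replicates of each group lay close together and the groups were far apart, and the log2 fold change was -0.80 ± 0.11 (SE, n = 2 per group) with a limma adjusted p of 0.0171. The fold of 0.574 had a 95% confidence interval of 0.480 to 0.688. With either KO array left out the change was -0.81 and -0.79. The call was lost there, as were most calls over all genes. Tm7sf2 (probe set 10465342), a sterol reductase that acts just before this step, measured 7.51 and 7.30 in KO and 8.12 and 8.05 in WT testes. The groups did not overlap, and the change was -0.68 ± 0.12 (limma adjusted p = 0.0401), with a fold of 0.624 (0.509 to 0.765). The Tm7sf2 call was lost after quantile normalization (limma adjusted p = 0.0523) and whichever of the 4 arrays was left out, where the change ran from -0.78 to -0.58.

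Hsd17b7 and Nsdhl act in the same demethylation complex, where Hsd17b7 reduces the ketone that Nsdhl leaves. Hsd17b7 measured 9.12 and 9.42 in KO, against 8.75 and 8.59 in WT testes. It was above the WT values on both KO arrays, with a change of 0.60 ± 0.14, and did not pass the test (limma adjusted p = 0.0857). The log2 difference between Nsdhl and Hsd17b7 within an array was -0.17 and -0.49 in KO and 0.97 and 1.17 in WT samples. An exact two-sided permutation test of that difference gave p = 0.333, the smallest that 2 against 2 samples allow. Any difference whose groups do not overlap gives this value. Msmo1, the oxidase of the same complex, named after its values were seen, had a change of -0.084 (95% confidence interval -0.47 to 0.31). The 3 enzymes of this complex thus had a lower call, an uncalled higher value and a value near 0.

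Lbr, the lamin B receptor, catalyses the same reduction as Tm7sf2 and was named after its values were seen. It had a change of -0.16 (95% confidence interval -0.50 to 0.17). The within-array log2 difference of Tm7sf2 and Lbr was -0.15 and -0.13 in KO and 0.54 and 0.22 in WT samples. Its exact two-sided permutation p was again 0.333, the smallest that 2 against 2 samples allow.

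Cyp51, the demethylase that acts first on lanosterol and whose sterol products include meiosis-activating sterols of the gonads, measured 7.67 and 7.29 in KO, against 8.31 and 7.88 in WT testes. The groups did not overlap, but each pair was widely spaced, and the change of -0.62 ± 0.19 did not pass (limma adjusted p = 0.143). It was -0.41 without control WT replicate 1 and -0.84 without control WT replicate 2. The desaturase Sc5d had a change of -0.38 ± 0.13, the isomerase Ebp one of -0.34 ± 0.13 and the cyclase Lss one of -0.27 ± 0.11, all with KO below WT on every array and adjusted p between 0.174 and 0.208 in limma. Sqle, the squalene epoxidase that limits flux into this stretch, had a change of -0.055 with overlapping groups. It was -0.28 without control WT replicate 2 and 0.17 without control WT replicate 1. Dhcr7, the reductase of the last step, had one of 0.058 (95% confidence interval -0.29 to 0.40).

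**Figure D2:**
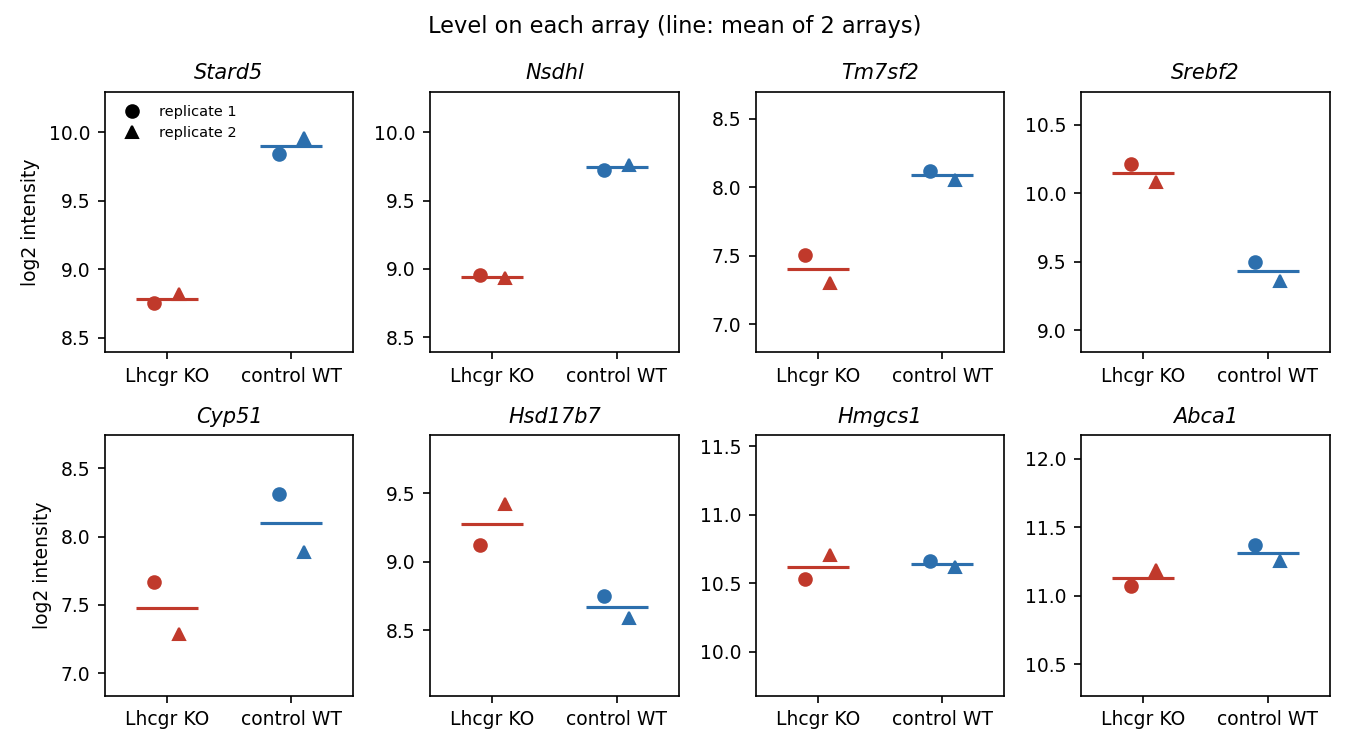
Log2 intensity of 8 cholesterol genes on each array, with Lhcgr KO in red left of control WT in blue, circles for replicate 1, triangles for replicate 2 and a line at each group mean; every panel spans the same range of 1.9 log2 units. Stard5, Nsdhl and Tm7sf2 are lower and Srebf2 is higher on both KO arrays, Hmgcs1 overlaps, and the pairs of Cyp51 are spread widely.

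Of 6 genes of uptake and intracellular transport, 1 fell, 0 rose and 5 were not called, and the median change was -0.17. Stard5 (probe set 10554693) encodes a soluble START-domain protein, a relative of the mitochondrial cholesterol carrier encoded by Star. It measured 8.75 and 8.82 log2 units in KO, against 9.84 and 9.96 in WT testes. The pairs were tight and did not overlap, and the change of -1.12 ± 0.11 (SE, n = 2 per group) was the largest among the 30 members (limma adjusted p = 0.00737). The fold of 0.461 had a 95% confidence interval of 0.381 to 0.557. With either WT array left out the change was -1.18 and -1.06 and passed, and with either KO array left out it was -1.08 and -1.15 and did not. Most calls over all genes were also lost without a KO array.

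Stard4, a close relative of Stard5 that moves sterol between membranes and answers to SREBP2, measured 7.69 and 7.45 in KO, against 7.22 and 7.18 in WT testes. Both KO values were above both WT values, with a change of 0.36 ± 0.13 that did not pass (limma adjusted p = 0.172). The log2 difference of Stard5 and Stard4 within an array was 1.06 and 1.37 in KO and 2.62 and 2.78 in WT samples. Its exact two-sided permutation p was 0.333, the smallest that 2 against 2 samples allow.

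The lipoprotein receptors stood on either side of 0. Vldlr measured 7.55 and 7.76 in KO, against 7.27 and 7.54 in WT testes, a change of 0.25 ± 0.14 (limma adjusted p = 0.313). It was 0.12 without control WT replicate 1 and 0.39 without control WT replicate 2. Lrp8, the apolipoprotein E receptor that also brings selenoprotein P into Sertoli cells, measured 11.19 and 11.38 in KO, against 11.44 and 11.90 in WT testes, a change of -0.39 ± 0.18 (limma adjusted p = 0.245). Control WT replicate 2, the sample with the epididymis markers, was the high one. The change of Lrp8 was -0.15 without that sample and -0.62 without control WT replicate 1 (limma adjusted p = 0.0770), and passed in neither case. Npc1 and Npc2, which pass cholesterol out of the lysosome, had changes of -0.13 and -0.21, with 95% confidence intervals of -0.43 to 0.16 and -0.48 to 0.068. Neither interval reaches a change as large as that of Nsdhl. The change of Npc1 was -0.024 without control WT replicate 1 and -0.24 without control WT replicate 2.

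None of the 3 efflux genes passed the test. All 3 had both KO values below both WT values, as did 22.4% of all genes, and their median change was -0.35. Apoe, the lipoprotein component that macrophages secrete in quantity, measured 11.89 and 11.68 in KO, against 12.11 and 12.25 in WT testes. Its change was -0.39 ± 0.13 (limma adjusted p = 0.158). Abcg1, which exports sterol to mature lipoproteins, measured 8.55 and 8.71 in KO, against 8.90 and 9.07 in WT testes, a change of -0.35 ± 0.13 (limma adjusted p = 0.178). Abca1, which loads lipid-poor apolipoprotein, measured 11.07 and 11.19 in KO, against 11.37 and 11.25 in WT testes, a change of -0.18 (95% confidence interval -0.46 to 0.097). In the same samples the 15 measured macrophage markers had changes from -1.55 to -0.28, with a median of -0.73. The values of Apoe and Abcg1 lie within that range, near its end at -0.28, and the confidence interval of Abca1 reaches into it. Such a range cannot sort these genes by cell source. The part of macrophages in the efflux values was not tested.

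Of 5 regulators, 1 rose, 0 fell and 4 were not called. Srebf2 (probe set 10425695) measured 10.22 and 10.09 log2 units in KO, against 9.50 and 9.36 in WT testes. The groups stood well apart, and the change was 0.72 ± 0.12 (SE, n = 2 per group, limma adjusted p = 0.0318), with a fold of 1.65 (95% confidence interval 1.35 to 2.01). Without control WT replicate 2 it was 0.65 and did not pass, nor did it without either KO array, where most calls over all genes were lost. Scap, the escort of SREBPs, measured 10.79 and 11.02 in KO, against 10.58 and 10.31 in WT testes. It lay higher on both KO arrays, with a change of 0.46 ± 0.15 that did not pass (limma adjusted p = 0.15).

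Srebf1, which encodes the SREBP isoforms that mainly drive fatty acid synthesis, measured 8.90 and 8.93 in KO, against 8.89 and 8.93 in WT testes. The 4 values nearly coincided, and the 95% confidence interval of the change, -0.25 to 0.27, leaves out a change as large as that of Srebf2. The log2 difference of Srebf2 and Srebf1 within an array was 1.31 and 1.15 in KO and 0.61 and 0.43 in WT samples. Its exact two-sided permutation p was 0.333, the smallest that 2 against 2 samples allow. The retention proteins Insig1 and Insig2 had changes of -0.14 and -0.061, with 95% confidence intervals of -0.45 to 0.18 and -0.33 to 0.20. The log2 difference of Insig1 and Insig2 within an array was -1.05 and -1.35 in KO and -1.09 and -1.16 in WT samples, with overlapping groups and an exact two-sided permutation p of 1. Insig1 is a direct target of SREBP2 in other tissues. Gene-level values of Srebf2 do not separate the truncated form that rodent germ cells make from the full-length one. None of the 14 germ cell markers was called, and their changes ran from -1.30 to 0.54. The part of germ cells in the Srebf2 value was not tested.

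The Srebf2 gene contains miR-33, a microRNA known to act on Abca1 and Npc1, on GRCm38.p6. Its mature strand is shown because the array has a probe set for its gene, named after its values were seen, with the seed, bases 2 to 8, in capitals; it lies at chr15:82198127-82198147 on the plus strand.
mmu-miR-33-5p: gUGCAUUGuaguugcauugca
The probe set of Mir33 measured 4.86 and 4.87 log2 units in KO, against 4.66 and 4.83 in WT testes, which places it at percentile 0.286 of all genes by mean level. At that level no change of miR-33 can be read from these arrays, and the probe set does not tell the hairpin from the mature strand.

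**Figure D3:**
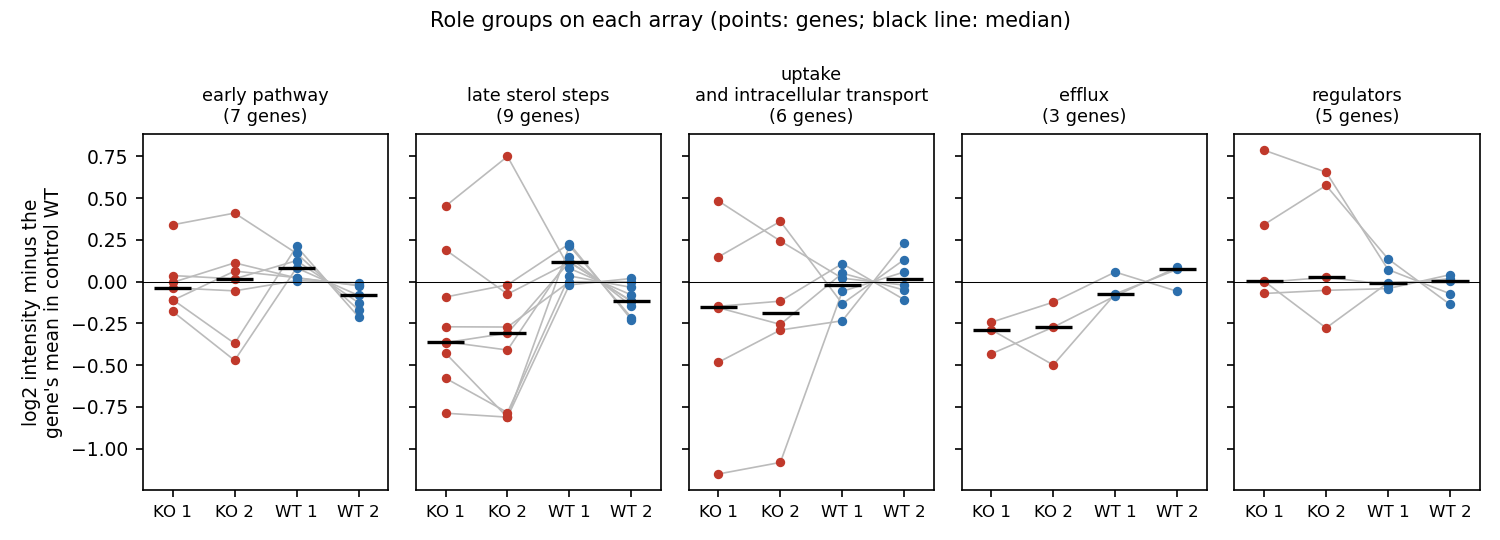
Log2 intensity of each measured cholesterol gene minus its mean in control WT samples, by role, on each of the 4 arrays; points are genes, grey lines join the same gene and black lines are medians, and the WT points mirror each other because they are set against their own mean. The median of the late sterol steps was -0.36 and -0.31 on the KO arrays and 0.12 and -0.12 on the WT arrays, and that of the early pathway was -0.037 and 0.017 in KO and 0.083 and -0.082 in WT samples.

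The replicates of the members were about as far apart as those of other genes. The median distance between the pair of arrays was 0.13 log2 units in KO and 0.15 in WT samples over the members, and 0.14 and 0.13 over all genes. The largest distances among the members were 0.38 in KO, for Cyp51, and 0.47 in WT samples, for Lrp8. Over the 30 members, 16 had both KO values below both WT values, 6 had both above and 8 overlapped, where the groups stood apart in 59.2% of all genes. The change was below 0 in 20 of 30 members and in 7848 of all 19938 genes. The shares over all genes include weak genes. Without the weakest 50% the median change of all genes was -0.041, against 0.072 with them.

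A list of 45 other sterol genes was written beside the members, of which 33 were measured. Of these 3 fell, 0 rose and 30 were not called, which makes 9.09% called, with a median change of -0.084. Star, the carrier that brings cholesterol into the mitochondrion for steroid synthesis, measured 9.79 and 9.69 in KO, against 11.35 and 10.95 in WT testes, a change of -1.41 ± 0.16 (limma adjusted p = 0.00927). Lipa, the lysosomal acid lipase that frees cholesterol from lipoprotein esters, measured 9.23 and 9.12 in KO, against 10.17 and 10.26 in WT testes. Its change of -1.04 ± 0.11 (limma adjusted p = 0.0088) stood beside values of -0.13 and -0.21 for Npc1 and Npc2, which take up the product of the same lysosomal step. The calls of both Star and Lipa were lost with either KO array left out, as were most calls over all genes. With 1 array left out the change ran from -1.61 to -1.21 for Star and from -1.09 to -0.98 for Lipa. Fbxw7, a ubiquitin ligase subunit that marks nuclear SREBPs for breakdown among many other substrates, measured 7.45 and 7.38 in KO, against 8.08 and 7.97 in WT testes, a change of -0.61 ± 0.11 (limma adjusted p = 0.0439). Averaged over its probe sets, the change of Fbxw7 was -0.27 and did not pass (limma adjusted p = 0.227). It also did not pass with any 1 of the 4 arrays left out, where it ran from -0.66 to -0.56, nor with the replicate number as a block (limma adjusted p = 0.0632).

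Among the 30 genes of this second list that did not pass, the largest changes were those of the sterol transfer protein Gramd1a (-0.51 ± 0.14), the transporter Abca5 (-0.51 ± 0.48), the ubiquitin ligase Mylip that degrades lipoprotein receptors (-0.44 ± 0.15) and the mitochondrial protein Tspo (-0.41 ± 0.14). Abca5 measured 9.05 and 7.38 on the KO arrays, so the KO pair alone spans more than the change. Scarb1, the lipoprotein receptor that supplies cholesterol esters to steroidogenic cells, was named after its values were seen and is also in the Leydig list. It measured 11.16 and 11.50 in KO, against 11.23 and 11.38 in WT testes, and its change of 0.026 had a 95% confidence interval of -0.33 to 0.38.

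**Figure D4:**
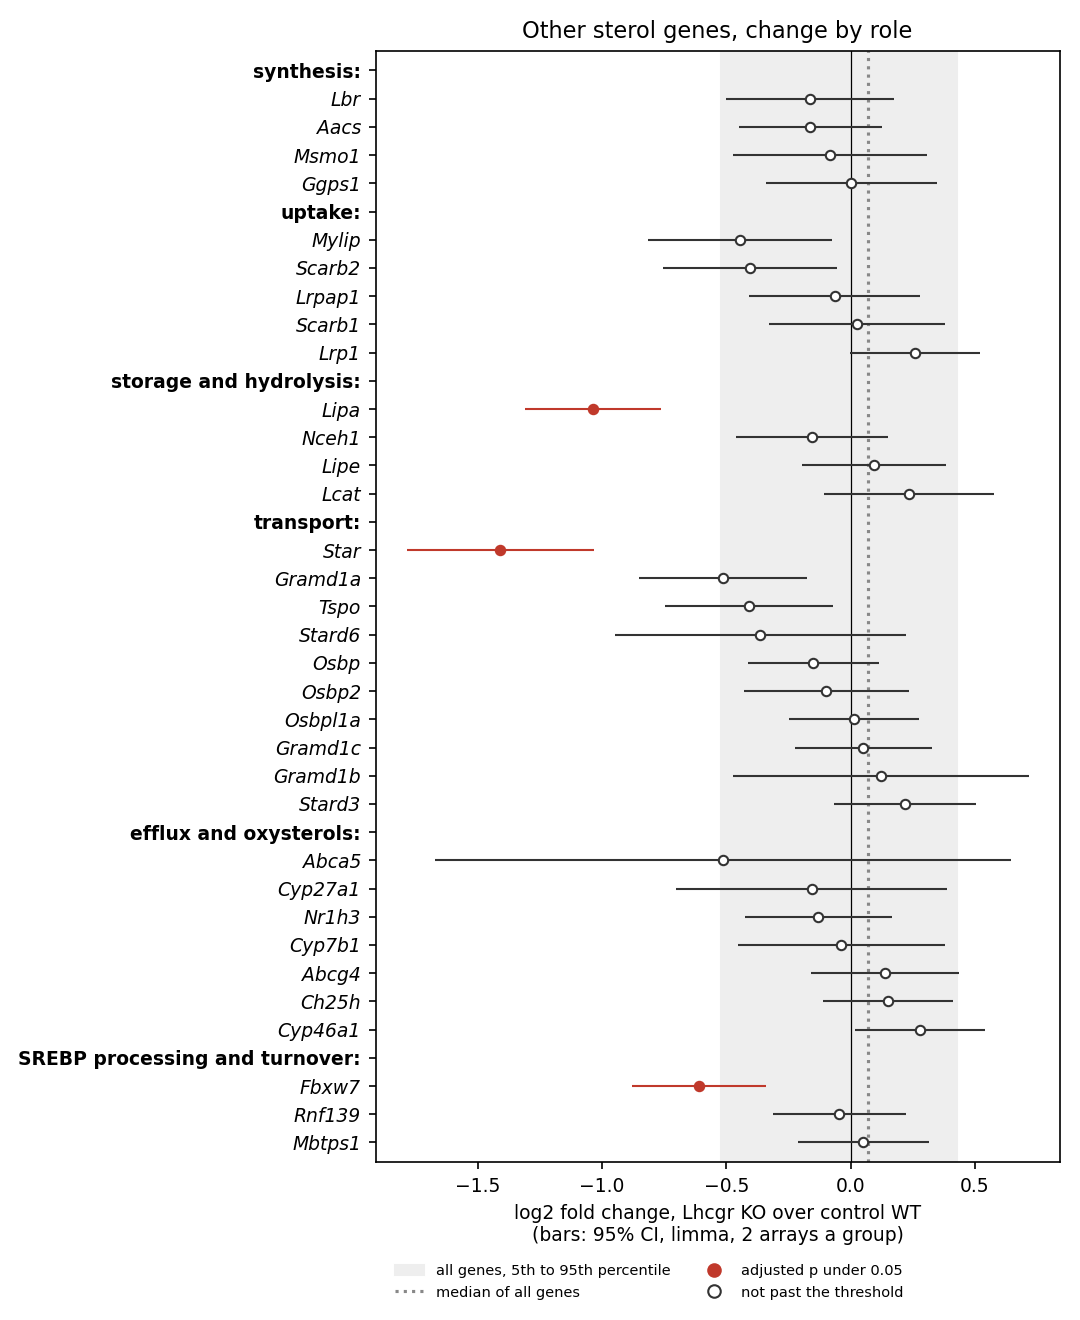
Log2 fold change, Lhcgr KO over control WT, of the 33 other measured sterol genes by role, with 95% confidence intervals from limma over 2 arrays a group; filled red points passed an adjusted p of 0.05, and the grey band spans the 5th to 95th percentile of all genes. Star, Lipa and Fbxw7 lie left of the band, and no gene lies to its right.

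The lipogenic genes driven mainly by SREBP1 gave no call among 14 measured, with a median change of -0.036. The values farthest from 0 were those of the stearoyl-CoA desaturase Scd1 (-0.81 ± 0.20, limma adjusted p = 0.0977), the acetyl-CoA synthetase Acss2 (0.33 ± 0.11), the elongase Elovl6 (-0.31 ± 0.14) and the desaturase Fads1 (-0.31 ± 0.12). Scd1 measured 9.11 and 9.50 in KO, against 10.36 and 9.86 in WT testes. The groups of Scd1 did not overlap, while each pair was about as widely spaced as that of Cyp51. Without control WT replicate 2 the change of Scd1 was -1.05 and passed (limma adjusted p = 0.0210), the 1 lipogenic call in any alternative.

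**Figure D5:**
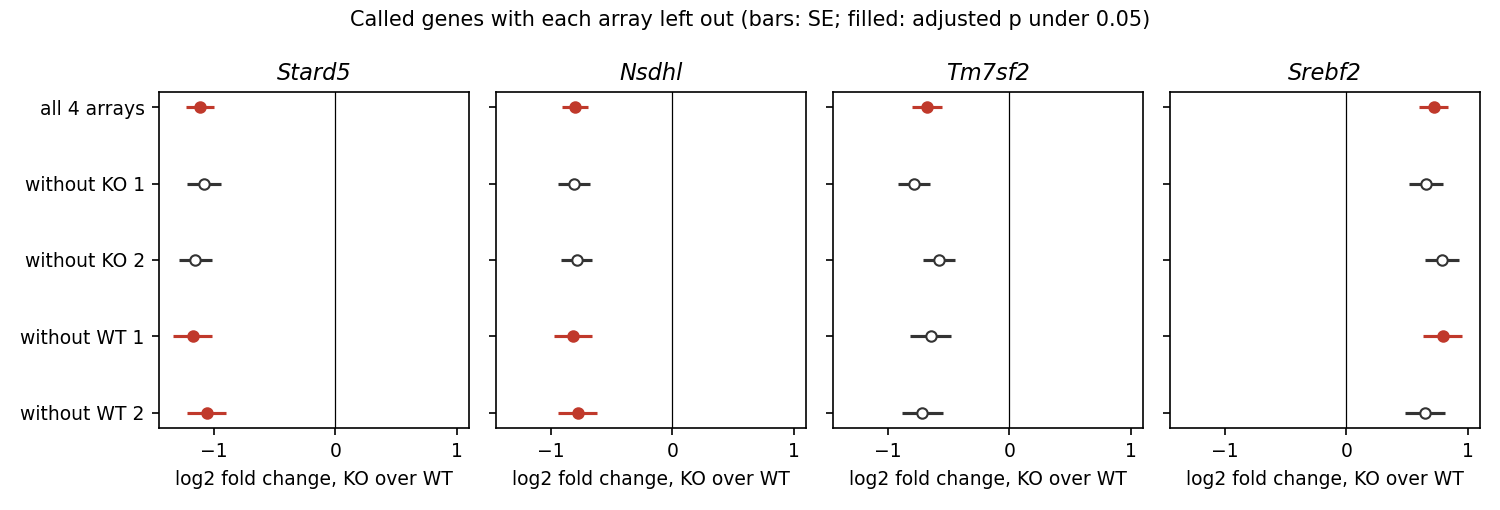
Log2 fold change, Lhcgr KO over control WT, of the 4 called cholesterol genes with all 4 arrays and with each array left out. Bars are moderated standard errors from limma, and filled red points passed an adjusted p of 0.05. Stard5 ran from -1.18 to -1.06, Nsdhl from -0.82 to -0.78, Tm7sf2 from -0.78 to -0.58 and Srebf2 from 0.65 to 0.79. None of the 4 passed with a KO array left out, where most calls over all genes were lost.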

How the data were processed

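The deposited values are linear intensities, 1 for each probe set of each sample. Per the labels' protocols, biotin-labelled sense-strand cDNA made from total RNA was run on 1-colour whole-transcript arrays from Affymetrix. The genome build is mm9, per the submitters' processing notes. The sources used here do not give how the authors summarized, background-corrected and normalized the probes. Every array had its minimum just over 16, and an added floor of that kind would compress changes of weak genes. Of 28856 probe sets, 21789 carry 1 gene symbol, 1621 several and 5446 none, and only the first were used, with symbols checked against RefSeq on GRCm38.p6. The brightest probe set stood for each of 19938 genes.

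Log2 values were fitted with limma 3.58.1 in R 4.3.3 (lmFit, eBayes, no covariates, two-sided, Benjamini-Hochberg over all genes), a step that was also tested on simulated data. The labels do not say that replicate numbers pair the samples. The correlation of the KO and WT pair differences was 0.020 over genes, which cannot exclude a pairing that touches some genes. All members were named, and of other lists the called genes (up to 4 per marker list) and the 4 largest uncalled sterol and lipogenic changes. The Leydig markers with overlapping groups were also named. The members and lists were chosen with earlier results of these data known. Alternatives were quantile normalization, median centring, leaving out the weakest 25% or 50% of genes, averaging probe sets, trended or robust eBayes, adding 32 before log2, a replicate block and leaving out each array.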

Additional observations from a re-analysis of the deposited data

How the results depend on the processing

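Without either KO array none of the member calls held. Without either WT array those of Stard5 and Nsdhl held, that of Srebf2 held without control WT replicate 1, and that of Tm7sf2 held in neither case. With 1 array left out, 0 to 2 members were called lower and 0 to 1 higher, and of other sterol genes 0 to 2 were called lower; over all genes 16 to 726 were called lower and 2 to 313 higher, the fewest without a KO array and the most without control WT replicate 1. These fits assume that the lone sample varies like the other group, and the cause was not tested. Left-out ranges of the change were -1.18 to -1.06 for Stard5, -0.82 to -0.78 for Nsdhl, -0.78 to -0.58 for Tm7sf2 and 0.65 to 0.79 for Srebf2. They were -0.075 to 0.19 for Dhcr7, -0.11 to 0.063 for Hmgcs1, -0.28 to 0.0027 for Insig1, -0.0047 to 0.11 for Mvk, -0.099 to 0.15 for Pmvk, -0.28 to 0.17 for Sqle and -0.0064 to 0.028 for Srebf1, and with no change of sign -0.53 to -0.24 for Sc5d, -0.46 to -0.22 for Ebp and -0.10 to -0.020 for Insig2. Role medians ran from -0.052 to 0.017 for the early pathway, -0.46 to -0.24 for the late steps, -0.20 to -0.090 for uptake and transport, -0.44 to -0.27 for efflux and -0.0064 to 0.028 for regulators. The lipogenic count was 0 to 1 lower, with Scd1 called without control WT replicate 2.

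After quantile normalization Tm7sf2 was at -0.71 and did not pass, Hmgcs1 was at 0.023, Insig2 at 0.017 and Pmvk at -0.072, and role medians were -0.072 (early pathway), -0.27 (efflux), 0.10 (regulators) and -0.098 (uptake and transport). After median centring Srebf1 was at -0.0075 and the uptake and transport median at -0.19, and with the weakest 50% of genes left out that median was -0.30 over the 4 genes that remained. With the replicate block Tm7sf2 kept its -0.68 and did not pass (limma adjusted p = 0.0504), 2 members were called lower and 1 higher, and no other member's call changed; of other sterol genes Fbxw7 lost its call, which left 2 called lower. Stard5, Nsdhl and Srebf2 kept their calls under every alternative that used all 4 arrays.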
